A study of Mus musculus with 4 samples.

Results

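miR-451, miR-144, its star strand miR-144*, miR-486 and its star strand miR-486* are microRNAs (miRNAs) best known from red cells. They were read from 5 probes, named mmu-miR-451, mmu-miR-144, mmu-miR-144*, mmu-miR-486* and, for a pair of miRNAs on 1 probe, mmu-miR-486, mmu-miR-3107. They were chosen by these names from 1096 mouse miRNA probes. The signal of the shared probe cannot be assigned to either of its miRNAs. Small intestine was collected from Tlr3-/- and Tlr3+/+ mice, either 6 hr after 10 Gy of total body gamma-irradiation or at 0 hr without treatment. Tlr3 encodes an innate immune receptor for double-stranded RNA. The 4 groups were irradiated Tlr3-/-, irradiated Tlr3+/+, non-treated Tlr3-/- and non-treated Tlr3+/+ intestine, with 1 array each, and every array held RNA pooled from 3 mice. Strain, sex and age are not stated in the labels, and each array reads bulk small intestine; the labels do not say whether blood was flushed out. No group had a replicate, so a ratio of arrays carries no spread between pools, and precision is limited by there being 1 array per group.

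Red cell precursors make large amounts of miR-144 and miR-451 from 1 shared primary transcript under the control of the erythroid factor GATA1. Most miRNA hairpins are cut by Drosha and then by Dicer. The miR-451 hairpin left by Drosha is too short for Dicer and is cut by the slicer activity of Ago2, so its maturation does not need Dicer. miR-451 represses Ywhaz, a 14-3-3 protein gene, and protects red cell precursors from oxidative stress, and miR-144 represses the gene of the antioxidant factor Nrf2. miR-486 lies within Ank1, the gene of the red cell membrane protein ankyrin, is abundant in red cells and in striated muscle, and represses Foxo1. Because red cells keep these miRNAs, the blood held in a tissue adds to its signal.

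The sequences are shown for the place of each mature strand in its hairpin. The listed hairpins are not those left by Drosha, so their lengths do not bear on what Dicer can cut. How the strands mature was not measured. In RefSeq (GRCm38.p6), mature miR-451a, which the array names miR-451, lies on the plus strand at chr11:78073186-78073207. Both arms of miR-144 lie upstream on the same strand, at chr11:78073010-78073032 for the 5′ arm (miR-144* on the array) and chr11:78073047-78073066 for the 3′ arm (miR-144). Capitals mark the seed, bases 2 to 8:
miR-451a: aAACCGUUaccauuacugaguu
miR-144-3p: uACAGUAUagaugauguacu
miR-144-5p: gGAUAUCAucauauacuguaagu
The 3 seeds differ from each other, and each occurs in 1 of 1679 mature mouse miRNA names of the table, so no other miRNA listed there shares a seed with them. In the hairpins, capitals mark the mature strands:
Mir451a: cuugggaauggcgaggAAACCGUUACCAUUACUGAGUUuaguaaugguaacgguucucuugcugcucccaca
Mir144: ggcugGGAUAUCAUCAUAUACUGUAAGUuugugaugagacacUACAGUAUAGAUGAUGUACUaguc
Mature miR-451a covers bases 17 to 38 of its hairpin of 72 bases. It takes in all 4 bases of the terminal loop that RNAfold predicts at bases 35 to 38. In the miR-144 hairpin of 66 bases, the mature strands at bases 6 to 28 and 43 to 62 have 0 bases in the predicted loop of 6 bases. The Mir144 and Mir451a hairpins are 99 bases apart, with Eral1 starting 134 bases beyond the Mir451a hairpin. Mir451b lies on the opposite strand of the Mir451a hairpin and has another mature sequence. Mir486 (chr8:23142555-23142682) lies within Ank1 and contains all 90 bases of Mir3107 (chr8:23142573-23142662). Of the 5 members, 3 were matched by name to a sequence, and no sequence is shown for the miR-486 probes.

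Spots named as blank set the level at which a signal could be told from nothing. The 1818 blank spots of an array averaged a raw intensity of 27.4 in irradiated Tlr3-/-, 24.7 in irradiated Tlr3+/+, 24.9 in non-treated Tlr3-/- and 24.5 in non-treated Tlr3+/+, with SDs of 1.19, 0.903, 1.02 and 0.935 in the same order. A probe was called detected above the blank mean plus 2 SD, at 29.7, 26.5, 26.9 and 26.4 on these arrays. By this rule 58.0%, 62.8%, 60.1% and 60.0% of the mouse miRNAs were detected, and 22 to 44 blank spots per array also passed. The tissue label was checked against epithelial miRNAs, of which miR-194, the brightest, read 7057, 5822, 6969 and 5941 in the same order. Spots of the 2 spike controls, 8 each per array, varied within arrays with a log2 SD of 0.105. A ratio of 2 arrays would have an SD of 0.148 from that source alone, and a difference of 2 ratios 0.209. The spike controls are far brighter than these probes and say nothing of how mice, pools or arrays vary. Neither labels nor headers state a slide. If the names of the deposited arrays carry it, 3 slides were used, 1 for both non-treated arrays and 1 for each irradiated array. Slide could then not be told apart from irradiation, from genotype at 6 hr, or from the difference of the irradiation ratios. Time and irradiation cannot be told apart either, since every irradiated pool was taken at 6 hr and every non-treated pool at 0 hr.

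miR-451 was above all blank spots and all 24 negative control spots on every array. Its raw intensity was 82.7 in irradiated Tlr3-/-, 129 in irradiated Tlr3+/+, 171 in non-treated Tlr3-/- and 42.3 in non-treated Tlr3+/+. These signals lay 46.5, 116, 143 and 19.0 blank SDs above the blank mean. The non-treated arrays thus held the highest and the lowest of the 4 values, with both irradiated arrays between them. Raw intensities spanned 4.04-fold, and intensities above the blank mean 8.22-fold. miR-451 ranked 110th, 87th, 71st and 178th from the top among 1096 mouse miRNAs on the same arrays.

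The miR-144 probe, for the cluster partner of miR-451, read close to the blank spots on every array. Its raw intensity was 29.5 in irradiated Tlr3-/-, 25.2 in irradiated Tlr3+/+, 26.7 in non-treated Tlr3-/- and 26.6 in non-treated Tlr3+/+, which is 1.81, 0.604, 1.78 and 2.20 blank SDs above the blank mean. It was detected only on the non-treated Tlr3+/+ array, the one where miR-451 was lowest. There 13 of 1818 blank spots were as bright or brighter, against 62, 486 and 55 on the others. Negative control spots as bright or brighter numbered 7, 21, 8 and 3 of 24. Against an array where the probe was not detected, only a lower bound of its normalized ratio can be given. For non-treated Tlr3+/+ this bound was 1.01-fold over irradiated Tlr3+/+ and 1.00-fold over non-treated Tlr3-/- intestine. Bounds so near 1.00 show no difference.

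miR-144*, the other arm of that hairpin, was detected on 0 of 4 arrays. Its raw intensity was 29.6 in irradiated Tlr3-/-, 26.4 in irradiated Tlr3+/+, 26.8 in non-treated Tlr3-/- and 25.5 in non-treated Tlr3+/+, or 1.89, 1.86, 1.93 and 1.02 blank SDs above the blank mean. Beyond the bounds given for miR-144, no ratio of either arm is given. The authors' own limit, which leaves out 5% of the blank spots at each end, was lower and filled the cells of each arm on 3 of 4 arrays. Neither arm passed the highest negative control spot on any array. The 2 miRNAs come from 1 transcript but are read by different probes, whose levels cannot be set against each other, and a dim probe does not show that miR-144 was absent.

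miR-486*, the star strand of the miR-486 hairpin, was above all blank spots and all negative control spots on the 4 arrays. Its raw intensity was 60.2 in irradiated Tlr3-/-, 69.7 in irradiated Tlr3+/+, 40.3 in non-treated Tlr3-/- and 38.5 in non-treated Tlr3+/+. Both irradiated arrays were higher than both non-treated ones. These signals lay 27.6, 49.8, 15.1 and 14.9 blank SDs above the blank mean.

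The probe shared by miR-486, the main arm, and miR-3107 was detected on all 4 arrays but stayed dim. Its raw intensity was 38.5 in irradiated Tlr3-/-, 34.4 in irradiated Tlr3+/+, 33.4 in non-treated Tlr3-/- and 30.7 in non-treated Tlr3+/+, at 9.35, 10.8, 8.37 and 6.62 blank SDs. On the non-treated Tlr3+/+ array 4 blank spots and 1 negative control spot were as bright or brighter. The lowest value again belonged to non-treated Tlr3+/+ intestine, and all 4 lay within 1.25-fold of each other.

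**Figure D1:**
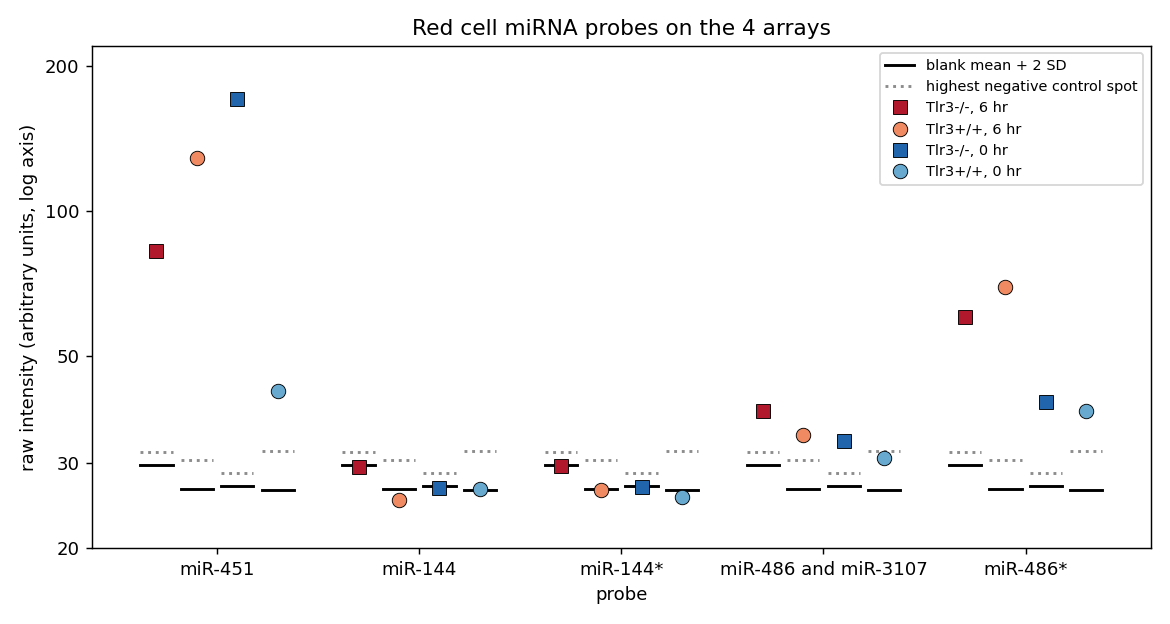
Raw intensity (log axis, arbitrary units) of the 5 probes on the 4 arrays, 1 point per array. Black bars give the blank mean plus 2 SD of that array and dotted bars its highest negative control spot. miR-451 spans 42.3 to 171, miR-486* separates the irradiated from the non-treated arrays, and both miR-144 probes lie at the limit.

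For ratios, intensities were corrected against the blank spots with an offset of 50, quantile normalized and put on the log2 scale. The offset pulls ratios of dim probes toward 0. The SD from spot noise was taken from raw spike intensities, without the offset or normalization. Multiples of that SD therefore set damped ratios against undamped noise and serve only as a rough scale. Only miRNAs detected on both arrays were compared, which kept miR-451, miR-486* and the shared miR-486 probe, 3 of the 5 members, in each comparison. A miRNA was counted as different at 2-fold or more, with no test, since each group had 1 array.

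In Tlr3-/- intestine, miR-451 was lower after irradiation, with a log2 ratio of -0.94. Normalized intensities were 106 in irradiated and 204 in non-treated Tlr3-/- intestine, 1.92-fold less, and 0 of the 3 compared members reached 2-fold. Of 562 miRNAs compared, 0.178% were at least 2-fold lower and 0.534% at least 2-fold higher, and miR-451 had the second lowest ratio. miR-486* went the other way, at 0.30 (82.0 in irradiated and 66.5 in non-treated intestine), or 2.04 times the SD that spot noise alone would give. That ratio ranked 19th from the top of 562, so a rise after irradiation was not particular to miR-486*. The shared miR-486 probe, at 0.03, was under the SD from spot noise, but the offset damps so dim a probe. It stood at 0.23 in the authors' deposited values, 0.20 scaled to the spike controls and 0.16 with the blank mean subtracted, beyond that SD. The other ways of processing gave 0.03 to 0.06. The members had a median of 0.03, against -0.0004 for all 562 miRNAs. In the authors' deposited values, which do not damp dim probes, miR-451 stood at -1.55 and miR-486* at 0.94, and there 3.2% of 625 miRNAs were at least 2-fold lower.

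In Tlr3+/+ intestine, miR-451 was 2.15-fold higher after irradiation (log2 1.11), with normalized intensities of 149 in irradiated and 69.3 in non-treated intestine. It was the 1 of 3 compared members at 2-fold, where 2.06% of 582 miRNAs were at least 2-fold higher and 0% lower, and it ranked 9th from the top. The ratio starts from the lowest miR-451 signal of the series. miR-486* was also higher, at 0.50 (93.5 in irradiated and 66.0 in non-treated intestine), 3.39 times the SD from spot noise and 24th of 582. The shared miR-486 probe was at 0.04. The members' median was 0.50, against -0.01 for all compared miRNAs. The authors' deposited values gave 2.32 for miR-451 and 1.45 for miR-486*, and 7.06% of 680 miRNAs were at least 2-fold higher in them.

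Between the irradiated arrays, miR-451 was lower in Tlr3-/- than in Tlr3+/+ intestine, with a log2 ratio of -0.49, which is 1.41-fold. None of the 3 compared members reached 2-fold, and of all 570 miRNAs 0% were at least 2-fold higher and 0% lower. miR-451 had the 6th lowest ratio. miR-486* was at -0.19, 1.27 times the SD from spot noise, and the shared miR-486 probe at 0.05. In the authors' deposited values miR-451 passed 2-fold, at -1.04, where 4.5% of 645 miRNAs were at least 2-fold lower.

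Between the non-treated arrays, miR-451 was 2.94-fold higher in Tlr3-/- than in Tlr3+/+ intestine (log2 1.56), the highest ratio of 571 miRNAs. It was the 1 of 3 members at 2-fold, where 0.35% of all compared miRNAs were at least 2-fold higher and 0% lower. miR-486* differed by 0.01 and the shared miR-486 probe by 0.07, both under the SD of 0.148 from spot noise. With the blank mean subtracted in place of the offset, the shared probe was at 0.49, beyond that SD, and miR-486* at 0.04. In the authors' deposited values 1.07% of 656 miRNAs were at least 2-fold higher, and they gave 2.83 for miR-451, -0.06 for miR-486* and 0.25 for the shared miR-486 probe.

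**Figure D2:**
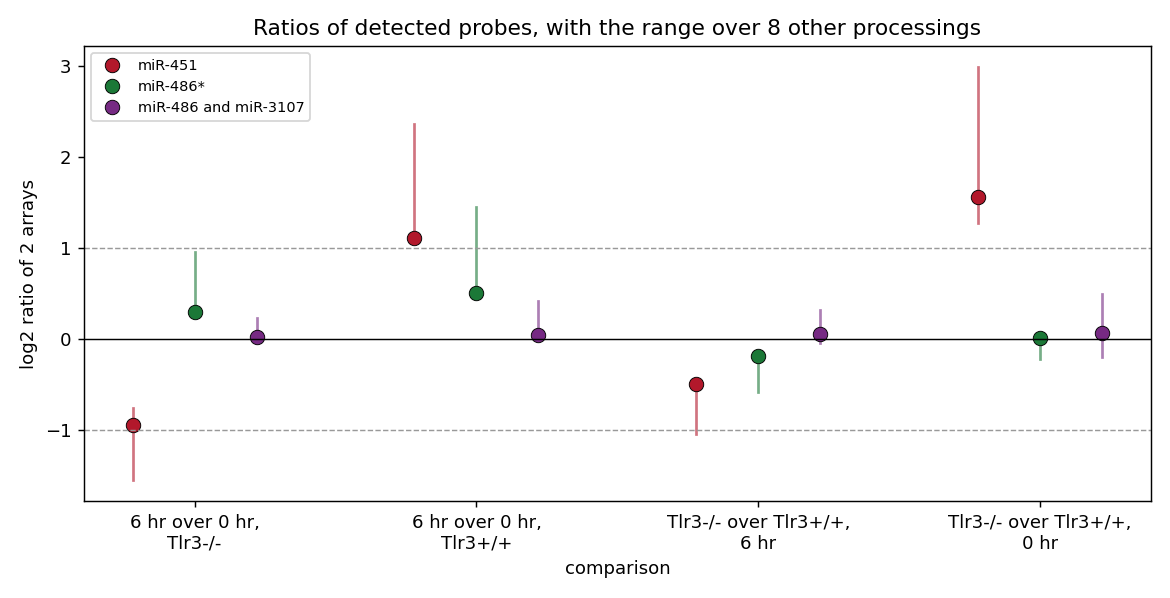
Log2 ratio of 2 arrays for the 3 detected probes in the 4 comparisons. Points are the values in the text, vertical lines their range over 8 other ways of processing, and dashed lines mark 2-fold. miR-451 is below 0 in both comparisons that have irradiated Tlr3-/- intestine on top, and above 0 in the other comparisons.

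The irradiation ratio of miR-451 was opposite in the genotypes. Tlr3-/- minus Tlr3+/+, the ratios differed by -2.05 on the log2 scale, the lowest of 509 miRNAs detected on all arrays. The difference was 9.79 times the SD from spot noise, and 0.589% of the 509 were at or below -1. Both parts contribute, since the genotypes differed by 1.56 at 0 hr and by -0.49 at 6 hr. For miR-486* the difference was -0.20 and for the shared miR-486 probe -0.02, both under the SD of 0.209 from spot noise. Over 8 other ways of processing, miR-486* ran from -0.52 with the authors' values to -0.05 scaled to the spike controls. Whether miR-486* passed that SD thus depended on the processing, while the shared probe stayed between -0.18 and 0.15. The authors' deposited values gave -3.87 for miR-451, where 5.76% of 573 miRNAs were at or below -1. The interaction itself could not be tested with 1 array in each cell of the design.

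Ordered by normalized log2 level, miR-451 was highest in non-treated Tlr3-/- (7.67), followed by irradiated Tlr3+/+ (7.22), irradiated Tlr3-/- (6.73) and non-treated Tlr3+/+ (6.11). Neighbours were 0.45, 0.49 and 0.61 apart, 3.03 to 4.14 times the SD from spot noise. For miR-486* the order was irradiated Tlr3+/+ (6.55), irradiated Tlr3-/- (6.36), non-treated Tlr3-/- (6.06) and non-treated Tlr3+/+ (6.05). There only the step from the irradiated to the non-treated arrays, 0.30, passed 2 such SDs. For the shared miR-486 probe the widest step was 0.04. The range of miR-451 over the arrays, 1.56, was the 4th widest of 509 miRNAs, where the median range was 0.10, and that of miR-486* was the 48th widest.

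**Figure D3:**
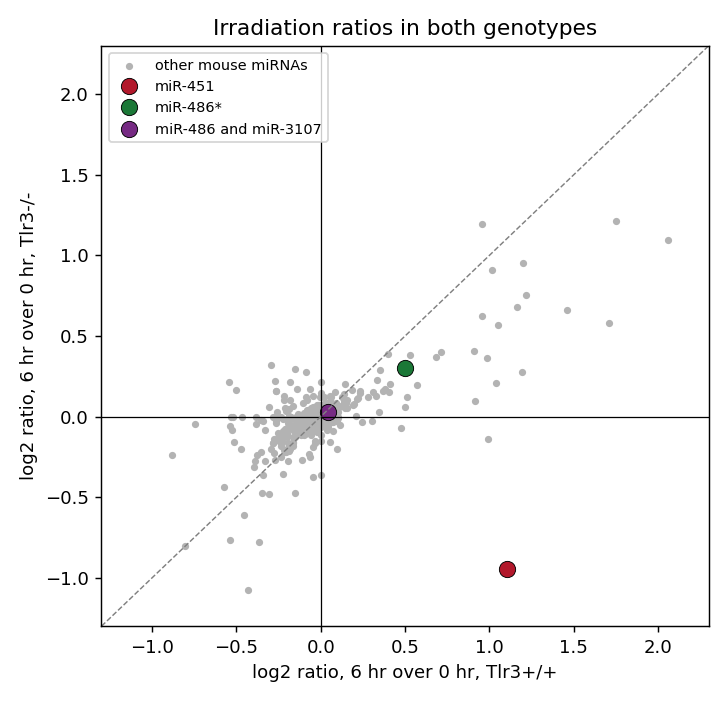
Log2 irradiation ratio (6 hr over 0 hr) in Tlr3-/- intestine against that in Tlr3+/+ intestine for 509 miRNAs detected on all 4 arrays. The dashed diagonal marks equal ratios. miR-451, at -0.94 and 1.11, lies apart at the lower right, while miR-486* is above 0 in both genotypes.

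An additive fit with limma gave the only test these arrays allow. It averages the irradiation change over both genotypes and takes their disagreement, 1 residual degree of freedom, as the spread. That spread is moderated by eBayes with the spreads of all miRNAs in the fit, so no p rests on 1 miRNA alone. miR-451 had an averaged irradiation change of 0.08 (adjusted p = 0.952, limma) and a residual SD of 1.02. miR-486* had 0.40, higher in both genotypes, with an unadjusted p of 0.0161 and an adjusted p of 0.236 (limma), so it did not pass. The shared miR-486 probe had 0.04 (adjusted p = 0.573, limma). Over all 697 miRNAs in this limma fit, 0% had an adjusted p under 0.05 and 13.8% had an unadjusted p under 0.05. For genotype, averaged over both times, the limma changes were 0.53 for miR-451 (adjusted p = 0.870), -0.09 for miR-486* (adjusted p = 0.837) and 0.06 for the shared probe (adjusted p = 0.820), with 0% of miRNAs called and 4.73% at an unadjusted p under 0.05. Scaled to the spike controls, the irradiation change of miR-486* was 0.50 with an adjusted p of 0.00102 (limma), against 0.180 to 0.334 under the 8 other alternatives. In that scaling the limma fit called 34 of 697 miRNAs, 31 of them higher. It took about the same spread there for each member, although residual SDs were 0.953 for miR-451 and 0.0260 for miR-486*. That adjusted p therefore does not measure the spread of miR-486*.

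Other miRNAs abundant in red cells but also made widely were read as a list: miR-16, miR-15a, miR-15b, miR-92a, miR-22, miR-25, miR-93, miR-185 and miR-363-3p. In Tlr3-/- over Tlr3+/+ at 0 hr, 2 of 8 compared were above 0 (median -0.03, against -0.001 for all miRNAs), and 0 reached 2-fold. After irradiation the list had 2 of 8 above 0 and 5 below in Tlr3-/- (median -0.04, against -0.0004 for all miRNAs). In Tlr3+/+ it had 0 of 9 above 0 (median -0.25, against -0.01 for all miRNAs). Its brightest members were miR-16, miR-22 and miR-15a, and miR-16 had raw intensities of 516 in irradiated Tlr3-/-, 414 in irradiated Tlr3+/+, 448 in non-treated Tlr3-/- and 460 in non-treated Tlr3+/+. The irradiation ratio differed between the genotypes by 0.44 for miR-16, 0.33 for miR-15a and 0.12 for miR-22, where it differed by -2.05 for miR-451. Summed above the blank mean, the list read 1342, 1080, 1234 and 1214 on those arrays. In Tlr3-/- intestine this raw sum was thus higher after irradiation, while the median normalized ratio was below 0.

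Markers of other cells that intestine and blood can hold were set beside miR-451. Leukocyte miRNAs summed above the blank mean to 262 in irradiated Tlr3-/-, 225 in irradiated Tlr3+/+, 378 in non-treated Tlr3-/- and 288 in non-treated Tlr3+/+. Like miR-451, this list was highest on the non-treated Tlr3-/- array, but it was lowest on another array. At 0 hr, 5 of 6 leukocyte miRNAs were above 0 in Tlr3-/- over Tlr3+/+ (median 0.19), and 0 reached 2-fold. miR-142-5p, the brightest of them, was at 0.34, followed in brightness by miR-223 at 0.00 and miR-146a at 0.19. After irradiation, 0 of 6 were above 0 in Tlr3-/- (median -0.16, against -0.0004 for all miRNAs) and 0 of 6 in Tlr3+/+ (median -0.23, against -0.01). In Tlr3-/- intestine miR-142-5p was at -0.78, beside -0.94 for miR-451, while the other 5 lay between -0.22 and -0.09. In Tlr3+/+ intestine it was at -0.37, where miR-451 was at 1.11.

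The platelet and endothelium list summed to 381, 370, 371 and 379 on the 4 arrays in the same order and had a median of -0.06 at 0 hr. Its brightest members, miR-126-3p, miR-221 and miR-126-5p, were between -0.12 and -0.04 there. Striated muscle miRNAs bear on miR-486, which muscle also makes. They summed to 64.1, 59.2, 54.8 and 52.3, with miR-206, miR-208a-3p and miR-499 detected on 0 arrays. The brightest, miR-1a, miR-133b and miR-133a, had irradiation ratios of 0.02, -0.01 and 0.17 in Tlr3-/- and 0.04, 0.00 and -0.06 in Tlr3+/+, where miR-486* had 0.30 and 0.50. Epithelial miRNAs were led by miR-194, miR-215 and miR-192. Their median irradiation ratio was 0.07 in Tlr3-/- and -0.45 in Tlr3+/+, where miR-194 and miR-215 were at 0.00. Quantile normalization gives probes of equal rank equal values, so ratios of the brightest probes follow rank. Raw miR-192 was 2430, 2233, 2385 and 2224 in the same order, with ratios of -0.43 in Tlr3-/- and -0.57 in Tlr3+/+. The epithelial list summed to 17928, 14993, 16413 and 15342, only slightly lower after irradiation in Tlr3+/+. By irradiation ratio in Tlr3+/+, the platelet and endothelium list had 0 of 4 above 0 (median -0.17) and the epithelial list 0 of 6. The red cell and leukocyte lists also had 0 above 0 there, so that count was not particular to red cell miRNAs. The striated muscle list had 1 of 3 above 0. In bulk tissue, fewer cells of a type and less RNA per cell cannot be told apart. The part of blood content, leukocytes or muscle in these ratios was not tested.

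**Figure D4:**
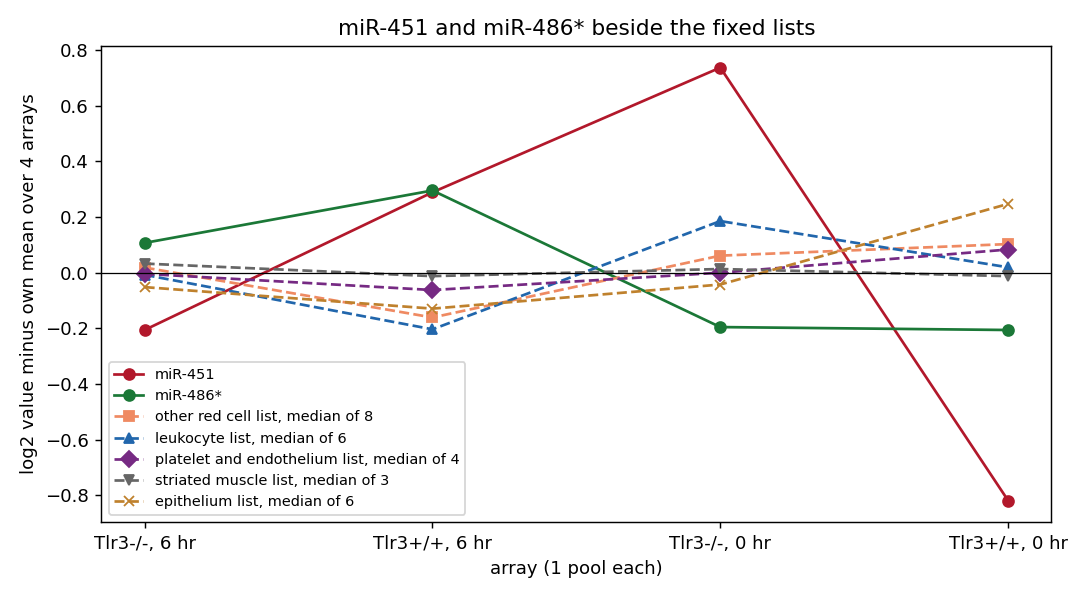
Normalized log2 value minus its own mean over the 4 arrays, for miR-451, miR-486* and the median of each list over its members detected on all arrays. Lines only join the values of one item. miR-451 stands at 0.74 in non-treated Tlr3-/- intestine, against -0.82 in non-treated Tlr3+/+ intestine, while the list medians stay within -0.20 and 0.25.

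The miRNAs whose centred log2 values over the 4 arrays lay nearest to those of miR-451 were miR-195 (Euclidean distance 0.62), miR-211* (0.95), miR-3077* (0.96), miR-680 (0.97) and miR-10a (0.99), of 508 ranked. The median distance was 1.17, so after miR-195 the likeness was slight. Raw intensities of miR-195 were 146 in irradiated Tlr3-/-, 111 in irradiated Tlr3+/+, 143 in non-treated Tlr3-/- and 39.6 in non-treated Tlr3+/+. miR-195 shared with miR-451 the low value on the non-treated Tlr3+/+ array but not the difference between irradiated and non-treated Tlr3-/- intestine. The shared miR-486 probe ranked 56th (distance 1.12) and miR-486* 209th (1.16). Both distances were close to the median, so these ranks show no likeness to miR-451.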

How the data were processed

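Total RNA from pooled small intestine was labelled with Hy5 and read on 4 arrays in 1 colour, per the labels' protocols. For each array of 3136 spots, the deposited columns are raw intensity, intensity after background subtraction and intensity after global normalization, per the file headers. The scanner is not given in the sources used here. Checked against the raw values, the authors' subtraction takes away a blank mean trimmed by 5% at each end, and their normalization sets the median filled probe to 25. The deposited ratio of SD to mean of repeated control spots was not used. The deposited series table equals the normalized intensity within 0.005 on a linear scale, with no centring, for 1123 of 1135 IDs matched.

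Raw intensities were corrected with nec of limma 3.58.1 (R 4.3.3, offset 50, blank spots as negative controls), quantile normalized over the 1135 miRNA probes and put on the log2 scale. The limma fit had terms for genotype and irradiation, eBayes and Benjamini-Hochberg adjustment over mouse miRNAs detected on at least 2 arrays. It was also run on simulated data with the same irradiation changes in both genotypes. Those data held no spread between pools and no difference between genotypes, so that run does not bear on miR-451. Hairpins were folded with RNAfold 2.7.2. Named miRNAs are the 5 members, the 5 nearest to miR-451 and the 3 brightest of each list. miRNAs beyond these were named to give a list's members. Members and lists were chosen with earlier results of these data known. Alternatives were 4 other scalings, the authors' values, 3 background corrections, 2 detection filters, 2 size limits, 4 detection limits and, added after the data were seen, the authors' detection limit for all ratios.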

Additional observations from a re-analysis of the deposited data

Results flagged for a closer look

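The irradiation ratio of miR-451 was below 0 in Tlr3-/- intestine (-0.94) and above 0 in Tlr3+/+ intestine (1.11). Each ratio sets 1 irradiated pool against 1 non-treated pool. The difference, Tlr3-/- minus Tlr3+/+, was -2.05 on the log2 scale. With 1 array per genotype and time, it was not tested. Of the other 2 members compared, miR-486* was above 0 in both genotypes (0.30 in Tlr3-/- and 0.50 in Tlr3+/+). The shared miR-486 probe (0.03 and 0.04) was only 0.18 and 0.30 times the SD from spot noise, so its sign says little.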

How the results depend on the processing

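No paired analysis was possible because each group has 1 array. In the 8 alternatives that can change a ratio, the miR-451 value kept its sign in each of the 4 comparisons and in the difference of irradiation ratios, which ran from -3.87 with the authors' values to -1.91 in another scaling. Of 120 member values under these, 77 stayed within 1 SD of spot noise, 43 moved beyond it and 0 of those at 2-fold changed sign. The shared miR-486 probe, under 2-fold, had -0.20 at 0 hr and -0.05 at 6 hr for Tlr3-/- over Tlr3+/+ under spike scaling, which itself moved the median of all miRNAs at 0 hr to -0.25.

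Members at 2-fold or more numbered 1 for irradiation in Tlr3+/+, and 2 with the authors' values or the blank mean subtracted, where miR-486* joined miR-451. Beside them, all miRNAs at 2-fold were 12 higher and 0 lower of 582, then 48 and 25 of 680 with the authors' values and 41 and 11 of 582 with the blank mean subtracted. In Tlr3-/- the count of 0 became 1, miR-451, with no background correction, the blank mean subtracted, the authors' values, an offset of 16 or a 1.5-fold limit. All miRNAs past the limit there were 3 higher and 1 lower of 562, then 5 and 2, 16 and 14, 18 and 20 of 625, 5 and 3, and 9 and 6 in the order of those settings. Between irradiated arrays 0 became 1 with the authors' values, where 14 miRNAs were higher and 29 lower of 645. At a 3-fold limit the counts for irradiation in Tlr3+/+ and for genotype at 0 hr were 0, as were these and the difference with a filter at 3 times the detection threshold, which left no member to compare. Spike scaling gave 1 member past an adjusted p of 0.05 in the limma fit for irradiation, miR-486*, in place of 0. In that scaling the fit took about the same spread for each member. Of 20 pairs of member and array, 13 were detected, and 12 to 18 under other limits. The cause of these shifts was not tested.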

Other observations

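miR-3107* is named on the array as the star strand of the Mir3107 hairpin, which overlaps Mir486. Its raw intensity was 61.1 in irradiated Tlr3-/-, 60.9 in irradiated Tlr3+/+, 53.9 in non-treated Tlr3-/- and 54.8 in non-treated Tlr3+/+. The irradiation log2 ratio was 0.06 in Tlr3-/- and 0.01 in Tlr3+/+, beside 0.30 and 0.50 for miR-486*. It was looked at after the values were seen and has no test.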
